A study of Drosophila melanogaster with 24 samples.

Results

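The Imd pathway components described here are 7 genes, imd, Fadd, Dredd, Tak1, key, Rel and pirk. They were chosen by symbol as the adaptors, the caspase, the kinase steps, the NF-κB factor and an inhibitor of the pathway. They are 7 of the 17698 genes in the count table, and all 7 were among the 8707 genes that passed the low-count filter. RNA was sequenced from fat bodies dissected from Drosophila melanogaster larvae, with 4 libraries in each of 6 groups and 50 larvae pooled in each library. The tumour groups were C855a-Gal4/UAS-scrib-RNAi larvae, in which a Gal4 driver of epithelia expresses RNAi against the cell polarity gene scrib and the wing discs become tumours, sampled 4, 5, 8 and 11 days after egg laying. The control groups were C855a-Gal4/UAS-control-RNAi larvae, which carry the same driver and a control RNAi construct, sampled at days 4 and 5. Eggs were collected over 3 h for every group. Larvae with tumours stay larvae and do not form pupae, as the series' design text states. No control later than day 5 is among the samples, so tumour and age cannot be told apart at days 8 and 11. Nothing in the labels ties the 4 pools of 1 group to separate cultures. A p-value here therefore covers the spread between pools alone, which may be technical.

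In Drosophila, the Imd pathway is the NF-κB route by which the fat body and the gut respond to peptidoglycan of Gram-negative bacteria. Receptors of the PGRP family recruit the death-domain adaptor imd, Fadd links imd to the caspase Dredd, and cleaved imd is tagged with ubiquitin chains. The kinase Tak1 and the IKK complex, whose regulatory subunit is key (Kenny), then act on Relish, the product of Rel, which is cut by Dredd and switches on antimicrobial peptide genes in the nucleus. Most of these steps act on proteins already made, so the RNA level of a component does not measure the activity of the pathway. pirk encodes a cytoplasmic inhibitor that binds imd and the receptors, and it is itself known as a Relish target.

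Total counts ranged from 16074877 to 23352151 per library. Levels are CPM, the counts of a gene relative to the library's total, scaled with TMM factors, and a change is given as a log2 fold change ± SE. Changes were tested with edgeR (quasi-likelihood) and called where the p-value, adjusted by Benjamini-Hochberg over all 8707 genes, was under 0.05. scrib had 34.1 to 38.3 CPM in tumour day 5 libraries, against 41.4 to 48.4 CPM in control day 5 libraries. The difference was −0.31 ± 0.10 at day 5 (edgeR adjusted p = 0.01) and −0.23 ± 0.10 at day 4 (adjusted p = 0.0922). The driver is one of epithelia, so fat body RNA does not measure the knockdown in the discs. All 10 fat body markers had counts in every library, and 8 of the 10 were called lower and 1 higher in tumour day 11 than in control day 5 fat bodies, with sums of 57368 to 78016 CPM in tumour day 11 libraries, against 462972 to 497450 CPM in control day 5 libraries. The mean TMM factor was 0.724 in tumour day 4 libraries and 1.48 in tumour day 11 libraries, against 0.884 in control day 5 libraries. Scaling by library totals alone, an alternative chosen after seeing the data, moved the median of all genes by −0.15 to 0.74 on the log2 scale over the 9 comparisons. Salivary gland markers summed to 1615 CPM in control day 4 replicate 2 and 1546 CPM in control day 5 replicate 3, against at most 317 CPM elsewhere. Testis markers summed to 87.5 CPM in tumour day 5 replicate 1, and muscle markers to 211 CPM in tumour day 5 replicate 3. The fits were repeated without these 4 libraries, called below the 4 libraries picked by markers. Calls that ended are given with the genes. Libraries that stayed in also held RNA of other tissues. The 11 gut markers summed to 397 CPM in tumour day 11 replicate 3 and 300 CPM in tumour day 8 replicate 1. They summed to 291 CPM in control day 5 replicate 1, against 406 CPM in tumour day 5 replicate 1, which was left out.

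The genes lie on 3 chromosome arms, with coordinates from the BDGP6.54 annotation. imd (FBgn0013983) is at 18409796 to 18413599, pirk (FBgn0034647) at 21660967 to 21662995 and key (FBgn0041205) at 24785514 to 24787411, all on the minus strand of chromosome 2R. Rel (FBgn0014018) is at 9044183 to 9047977 on the minus strand of 3R, within the span of Nmdmc on the same strand, and shares 0 exonic bases with it. Fadd (FBgn0038928), a gene with 1 exon, is at 22034455 to 22035617 on the plus strand of 3R, within the span of pit, with which it shares 0 exonic bases. Dredd (FBgn0020381) is at 633622 to 635545 and Tak1 (FBgn0026323) at 20515908 to 20524928, both on the minus strand of X. Exonic overlap with genes of the opposite strand was 40 bases for imd (GstE9), 29 for key (CG3589) and 12 for Dredd (Mybbp1A). Dredd also shares 61 exonic bases with mir-9372 on its own strand. The use of strand in counting is not given in the sources used here, so reads in those bases cannot be assigned to a gene.

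Per kilobase of exon, Rel was the most abundant component, with 46.3 ± 14.6 CPM per kilobase (SD, n = 24 libraries). Dredd had 15.7 ± 2.29, imd 13.0 ± 8.79, key 9.07 ± 1.45, Tak1 7.99 ± 1.51, Fadd 4.15 ± 0.72 and pirk 3.30 ± 3.44 CPM per kilobase (SD, n = 24). The spread over groups differed widely between the genes. The highest group mean was 10.5 times the lowest for pirk and 3.97 times for imd, with the highest mean in control day 5 for both. It was 1.71 times for Rel, 1.62 for Tak1, 1.44 for key, 1.42 for Fadd and 1.36 for Dredd. Raw counts behind these values ran between 942 and 6972 reads for Rel and between 15 and 376 for pirk, so pirk carries the most counting error where it is low. In control day 5 libraries Fadd had fewer reads, 62 to 83, against 254 to 376 for pirk.

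**Figure D1:**
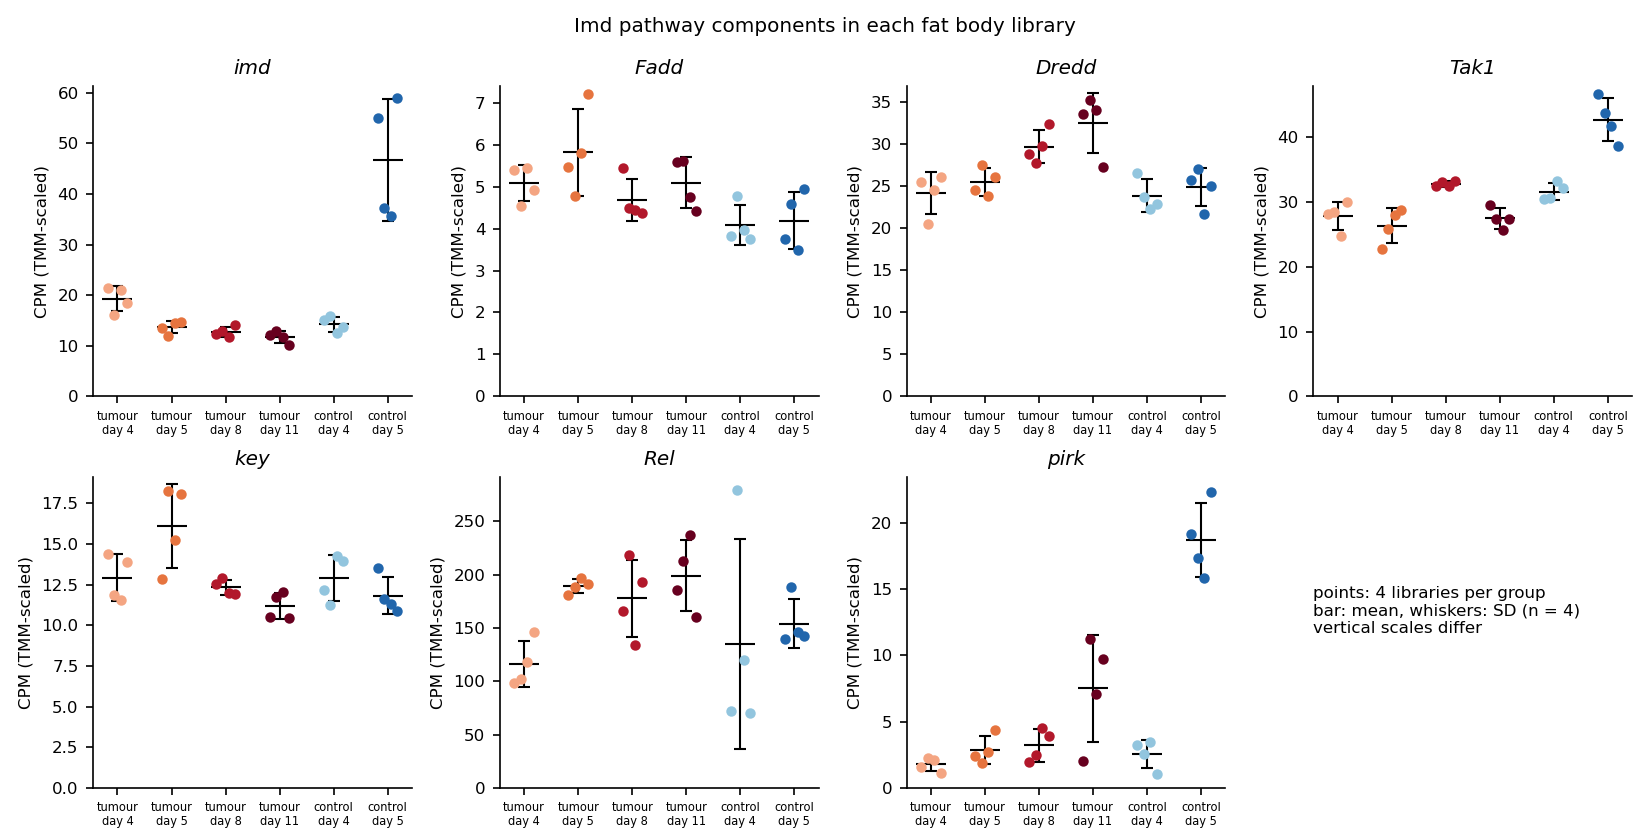
Level of each component in every library, in CPM on a vertical axis that starts at 0, for the tumour groups of days 4, 5, 8 and 11 and the control groups of days 4 and 5. Points are libraries, bars are means and whiskers are SD (n = 4). In imd, Tak1 and pirk the control day 5 libraries lie above every other library (imd at 35.7 CPM or more, pirk at 15.9 CPM or more), and in Rel 1 control day 4 library stands at 279 CPM.

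The main contrast of the design sets tumour against control larvae of the same day. Larvae of the same day need not be at the same developmental stage, so tumour and stage cannot be told apart in these contrasts either. At day 5 the upstream adaptor imd, the kinase gene Tak1 and the inhibitor gene pirk were lower in tumour fat bodies, by 1.77, 0.70 and 2.71 on the log2 scale, while Fadd and key were modestly higher. Thus 2 of the 7 components were called higher and 3 lower at day 5, where 54.9% of all genes tested were called (26.7% higher and 28.2% lower). At day 4 imd was the 1 component called, higher in tumour fat bodies, with 25.2% of all genes called (14.6% higher and 10.5% lower). With library totals the day 4 count was 0 higher and 1 lower, where 2265 of 8707 genes were called. The called gene was Tak1 (−0.34, edgeR adjusted p = 0.0217). The median log2 fold change of the 7 was 0.03 at day 5 and 0.00 at day 4, against 0.03 and 0.01 over all genes tested. With 5 of 7 and 1 of 7 components called, these counts say little about the set as a whole, and the sizes for single genes carry the result.

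The tumour effect itself differed between the days for 4 components, where 28.8% of all genes were called for such a difference (12.1% positive and 16.8% negative). Day 5 minus day 4, it was −2.20 ± 0.20 for imd (edgeR adjusted p = 7.97e-08), −2.20 ± 0.61 for pirk (adjusted p = 0.0093), −0.51 ± 0.11 for Tak1 (adjusted p = 0.00123) and 0.44 ± 0.16 for key (adjusted p = 0.04). Other RNA differed too between the day 5 groups. Of the 10 fat body markers, 5 were higher and 1 was lower in tumour fat bodies at day 5. Their sum ran the other way, at 274368 to 425468 CPM in tumour day 5 libraries, against 462972 to 497450 CPM in control day 5 libraries. That gap came from Fbp1, a receptor for larval storage proteins named after its value was seen, which averaged 2991 CPM in tumour and 270983 CPM in control libraries. At day 4 Fbp1 averaged 363 CPM in tumour and 44667 CPM in control libraries. The 11 haemocyte markers summed to 602 to 800 CPM in tumour day 5 libraries, against 513 to 617 CPM in control day 5 libraries, with lz at 0 in 1 control library, and 6 of the 10 tested were higher and 1 lower. The largest term of that sum, srp, averaged 302 CPM in tumour and 379 CPM in control libraries, while Hml averaged 37.7 and 9.92 CPM. The part of fat body marker RNA, of haemocyte RNA or of developmental stage in the day 5 results was not tested. Control day 5 enters the day 5 contrast, the difference and the day 5 against day 4 contrast of controls, so these share samples and are not separate evidence. In bulk fat body, fewer cells of a type and less RNA per cell cannot be told apart. Without the 4 libraries named above, the pirk difference was −2.07 with an adjusted p of 0.0775. With library totals the Tak1 difference was −0.22 and lost its call (adjusted p = 0.274).

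**Figure D2:**
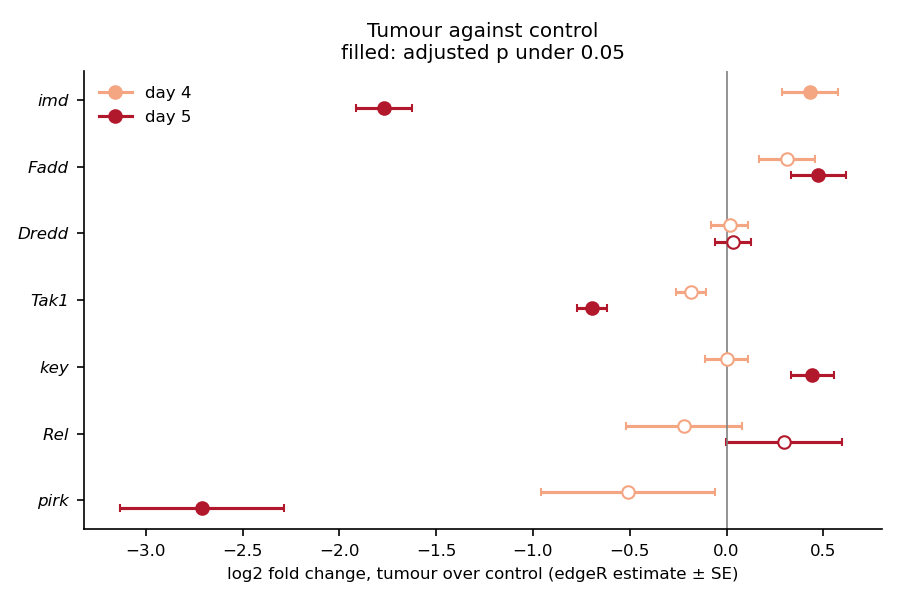
log2 fold change of each component, tumour over control, at day 4 and day 5 (edgeR estimate ± SE, 4 libraries per group; filled points have an adjusted p under 0.05). imd is at 0.43 on day 4 and −1.77 on day 5, pirk is at −2.71 on day 5, and Dredd is near 0 on both days.

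imd is the death-domain adaptor that gives the pathway its name, and its control level at day 5 stood above that of every other group. At day 5, imd had 13.5, 12.0, 14.5 and 14.8 CPM in tumour libraries, against 55.1, 37.2, 35.7 and 58.9 CPM in control libraries. All control libraries were far above all tumour libraries, and the log2 fold change was −1.77 ± 0.14 (edgeR adjusted p = 1.32e-09). At day 4 the order was the other way, with 21.5, 16.2, 21.0 and 18.4 CPM in tumour libraries, against 15.0, 15.9, 12.6 and 13.6 CPM in control libraries. The groups did not overlap at day 4 either, and imd was higher in tumour fat bodies by 0.43 ± 0.14 (adjusted p = 0.0317).

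The day 4 call on imd depended on single libraries. It ended without tumour day 4 replicate 1 or 3, or without control day 4 replicate 3 or 4, with log2 fold changes of 0.38 to 0.41 and adjusted p of 0.0805 to 0.0986. It also ended with library totals in place of TMM, at 0.27 (adjusted p = 0.193), and with only the groups compared in the model (0.39, adjusted p = 0.0808).

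Over time in tumour-bearing larvae, imd fell at day 5 relative to day 4, by 0.49 ± 0.14 (edgeR adjusted p = 0.00775). It then had 11.7 to 14.1 CPM at day 8 and 10.2 to 12.9 CPM at day 11, which overlap each other and the day 5 libraries. In controls imd rose at day 5 relative to day 4, by 1.71 ± 0.15 (adjusted p = 3.78e-09), with all 16 pairs of libraries in that direction. In order of level, control day 5 and tumour day 4 led and did not overlap their neighbours, while control day 4 and tumour days 5, 8 and 11 formed a run of overlapping groups with means of 14.3, 13.7, 12.7 and 11.8 CPM. The tumour day 5 against day 4 step was −0.06 with library totals, where the median of all genes moved by 0.42.

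Fadd, the adaptor that bridges imd and Dredd, was the second scarcest component per kilobase. It had 5.47, 4.77, 5.81 and 7.21 CPM in tumour day 5 libraries, against 3.76, 4.59, 3.49 and 4.94 CPM in control day 5 libraries. Tumour was higher in 15 of 16 pairs of libraries, although the groups overlapped, and the log2 fold change was 0.47 ± 0.14 (edgeR adjusted p = 0.0077). At day 4 the difference was 0.31 ± 0.14 and missed the threshold (adjusted p = 0.122), and the effects on the days differed by 0.16 ± 0.20 (adjusted p = 0.584). The day 4 and day 5 values rest on 50 to 132 reads per library. No neighbouring pair of group means in Fadd's order of levels was free of overlap.

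Dredd, the caspase that cuts imd and Relish, had the smallest range of group means. Its mean was 24.1 ± 2.49 CPM in tumour and 23.8 ± 1.93 CPM in control fat bodies at day 4, and 25.4 ± 1.62 CPM in tumour and 24.9 ± 2.26 CPM in control fat bodies at day 5 (SD, n = 4 each). The 95% interval of the log2 fold change was −0.17 to 0.20 at day 4 and −0.15 to 0.22 at day 5. In later tumour larvae Dredd had 28.8, 27.7, 29.8 and 32.3 CPM at day 8 and 33.5, 35.2, 34.0 and 27.2 CPM at day 11. All libraries of both days lay above the 4 control day 5 libraries, whose highest was 27.0 CPM.

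Against control day 5, Dredd was higher by 0.25 ± 0.09 in tumour day 8 (edgeR adjusted p = 0.028) and by 0.39 ± 0.09 in tumour day 11 fat bodies (adjusted p = 0.00147). The day 8 call ended without tumour day 8 replicate 3 or 4 or control day 5 replicate 3 or 4 (0.19 to 0.25, adjusted p of 0.0527 to 0.11), and without the 4 libraries picked by markers (0.22, adjusted p = 0.0895). It also ended with no low-count filter (0.25, adjusted p = 0.0569) and with a scaling that leaves out the 20 most abundant genes (0.22, adjusted p = 0.0647). The summed level of haemocyte markers was also higher on these days. Their 11 genes summed to 715 to 923 CPM in tumour day 8 and 1098 to 1317 CPM in tumour day 11 libraries, against 513 to 617 CPM in control day 5 libraries. The largest term was srp, at a mean of 295 CPM in tumour day 11 and 379 CPM in control day 5, so the sum understates other markers. Hml averaged 253 CPM in tumour day 11 and 9.92 CPM in control day 5, and Pxn 273 and 19.7 CPM. Of the 10 haemocyte markers tested, 7 were higher and 1 was lower in tumour day 11 than in control day 5, and all 11 had counts in each tumour day 11 library, while lz was at 0 in 1 tumour day 8 library. At day 5, tumour against control, 6 of these 10 were higher and 1 was lower, while Dredd was at 0.03. The part of haemocyte RNA in the level of Dredd was not tested.

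Tak1, the MAP3 kinase that stands above both the IKK complex and the JNK branch, followed imd in direction at day 5 but with a smaller size. It had 22.8, 25.9, 28.0 and 28.7 CPM in tumour day 5 libraries, against 46.7, 43.8, 41.7 and 38.7 CPM in control day 5 libraries. The groups were well apart, and Tak1 was lower in tumour fat bodies by 0.70 ± 0.08 (edgeR adjusted p = 1.34e-07). At day 4 it had 28.1, 28.5, 24.8 and 30.0 CPM in tumour libraries, against 30.4, 30.6, 33.3 and 32.2 CPM in control libraries. These groups did not overlap, but the change of −0.18 ± 0.08 missed the threshold (adjusted p = 0.093).

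In controls Tak1 rose at day 5 relative to day 4, by 0.43 ± 0.08 (edgeR adjusted p = 7.3e-05). In tumour-bearing larvae the day 5 against day 4 change was −0.08 ± 0.08 (adjusted p = 0.432). Tak1 then rose at day 8 relative to day 5, by 0.32 ± 0.08 (adjusted p = 0.00441), with 4 tightly grouped libraries of 32.4 to 33.3 CPM. It was at 25.7 to 29.6 CPM at day 11, and the change of −0.25 ± 0.08 relative to day 8 missed the threshold (adjusted p = 0.0741) although the groups did not overlap. Without the 4 libraries picked by markers, the day 8 step was 0.24 (adjusted p = 0.0939). Without tumour day 5 replicate 1, the day 11 step passed (adjusted p = 0.0489).

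key encodes Kenny, the regulatory subunit of the IKK complex, and its peak was at day 5 in tumour fat bodies. It had 12.9, 18.3, 15.2 and 18.1 CPM in tumour day 5 libraries, against 13.5, 11.6, 11.3 and 10.9 CPM in control day 5 libraries. Tumour was higher in 15 of 16 pairs, and the change was 0.44 ± 0.11 (edgeR adjusted p = 0.00197). At day 4 the groups overlapped closely, with means of 12.9 ± 1.42 CPM in tumour and 12.9 ± 1.43 CPM in control fat bodies (SD, n = 4 each). In tumour-bearing larvae key rose at day 5 relative to day 4, by 0.32 ± 0.11 (adjusted p = 0.0252), and fell at day 8 relative to day 5, by 0.38 ± 0.11 (adjusted p = 0.0138).

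The day 5 contrast of key passed in all 33 alternatives, with an adjusted p of at most 0.018. The steps around it were less firm. The difference between the days lost its call in 13 of the 24 fits that left out 1 library (0.37 to 0.44, adjusted p of 0.05 to 0.0946). Those libraries were replicates 2 and 3 of tumour day 4, 2 and 4 of tumour day 5, 1, 2 and 3 of tumour day 8, 2 of tumour day 11, 3 and 4 of control day 4 and 2, 3 and 4 of control day 5. The difference also lost it with no low-count filter (0.41, adjusted p = 0.1) and with only the groups compared (0.50, adjusted p = 0.0855). The rise at tumour day 5 lost its call without tumour day 4 replicate 2 or 3 or tumour day 5 replicate 2 or 4 (0.25 to 0.27, adjusted p of 0.0826 to 0.099). The fall at day 8 lost it without tumour day 5 replicate 2 or 4 (−0.32, adjusted p of 0.0548 to 0.0594), and with library totals its value was 0.10.

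Rel, the gene of the NF-κB factor Relish, was the most abundant component, and its day 4 tests depended on 1 control library. At day 4, Rel had 98.7, 102, 118 and 146 CPM in tumour libraries, against 72.2, 279, 120.1 and 70.4 CPM in control libraries. Control replicate 2, the library with most salivary gland marker RNA, was the highest of all 24 and widened the control spread to an SD of 98.5 CPM. Control day 5 replicate 3, with salivary gland markers at 1546 CPM, had Rel at 146 CPM. The antimicrobial peptide genes described below summed to 396 CPM in control day 4 replicate 2, against 47.3, 176 and 27.2 CPM in replicates 1, 3 and 4. The part of salivary gland RNA in this Rel value was not tested. The log2 fold change was −0.22 ± 0.30 with control day 4 replicate 2 (edgeR adjusted p = 0.647) and 0.41 without it, and neither passed the threshold.

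At day 5, Rel had 181, 189, 197 and 191 CPM in tumour libraries, against 139, 188, 146 and 143 CPM in control libraries. Tumour was higher in 15 of 16 pairs. The change of 0.30 ± 0.30 missed the threshold (edgeR adjusted p = 0.417), and over 33 alternatives its adjusted p was 0.0529 at the lowest. That SE comes from 1 spread for Rel estimated over all 6 groups, control day 4 replicate 2 included, and not from the day 5 libraries alone. The day 5 SD was 6.59 CPM in tumour and 22.9 CPM in control libraries, against 98.5 CPM in control day 4. In tumour-bearing larvae Rel was higher at day 5 than at day 4 in all 16 pairs, by 0.70 ± 0.30, with an adjusted p of 0.0635. That step passed in other fits, for instance with only the groups compared (0.75, adjusted p = 0.00172), with RLE scaling (0.78, adjusted p = 0.0363) and without control day 4 replicate 2 (0.70, adjusted p = 0.00288), 1, 4 or tumour day 4 replicate 4 (up to 0.83, adjusted p of at most 0.0492). In controls the day 5 against day 4 change was 0.19 ± 0.30 (adjusted p = 0.625), and 0.82 with an adjusted p of 0.00154 without control day 4 replicate 2. Without the 4 libraries picked by markers, which include that replicate, it was 0.85 (adjusted p = 0.00365). Later tumour libraries held 134 to 218 CPM at day 8 and 161 to 237 CPM at day 11, overlapping both each other and day 5.

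pirk, the inhibitor, had the widest range of the 7. At day 5 it had 2.43, 1.88, 2.70 and 4.37 CPM in tumour libraries, against 19.1, 17.4, 15.9 and 22.4 CPM in control libraries. The control libraries stood far above, and pirk was lower in tumour fat bodies by 2.71 ± 0.42 (edgeR adjusted p = 1.44e-05). At day 4 it had 1.61, 2.24, 2.11 and 1.14 CPM in tumour libraries, against 3.22, 2.59, 3.43 and 1.02 CPM in control libraries. These overlapped, and the change of −0.51 ± 0.45 did not pass (adjusted p = 0.452). In controls pirk rose at day 5 relative to day 4, by 2.87 ± 0.43 (adjusted p = 1.06e-05).

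In tumour-bearing larvae pirk had 1.93, 2.45, 4.53 and 3.92 CPM at day 8 and 2.01, 11.2, 7.10 and 9.70 CPM at day 11. At day 11, 3 libraries were above every earlier tumour library while replicate 1 was not. The step of 1.23 ± 0.40 relative to day 8 missed the threshold (edgeR adjusted p = 0.108), and it was 1.54 with an adjusted p of 0.0176 without that replicate. All 4 tumour day 11 libraries were still below the lowest control day 5 library.

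Along the time axes, 3 components rose and 0 fell in controls at day 5 relative to day 4, where 55% of all genes were called (25.8% higher and 29.2% lower). In tumour-bearing larvae 1 rose and 1 fell at day 5 relative to day 4 (44% of all genes called, 19.6% higher and 24.5% lower), and 1 rose and 1 fell at day 8 relative to day 5 (26.1%, with 12% higher and 14% lower). At day 11 relative to day 8, 0 components were called by edgeR, where 3.34% of all genes were (1.72% higher and 1.62% lower), although Tak1 and pirk had an unadjusted p under 0.05 and DESeq2 called both. With library totals, 6 components were higher and 0 lower at tumour day 5 against day 4, where 4677 of 8707 genes were called. At day 8 against day 5, 3 were higher and 0 lower, where 4663 of 8707 genes were called. The median of all genes moved by 0.42 and 0.49 in these comparisons under that scaling.

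Against control day 5, imd, Tak1 and pirk were also lower in tumour larvae of later days, with the limit on age given above. imd was lower by 1.87 ± 0.14 at day 8 (edgeR adjusted p = 7.84e-10) and by 1.99 ± 0.14 at day 11 (adjusted p = 2.15e-10). pirk was lower by 2.54 ± 0.42 at day 8 (adjusted p = 2.85e-05) and by 1.31 ± 0.40 at day 11 (adjusted p = 0.00756). Tak1 was lower by 0.38 ± 0.08 and 0.64 ± 0.08, but with library totals its values were 0.24 and 0.11, where the median of all genes moved by 0.62 and 0.74. With Dredd higher on both days, 1 component was higher and 3 were lower in each comparison, where 54.4% of all genes were called at day 8 (25.2% higher and 29.2% lower) and 57.5% at day 11 (27.4% higher and 30.1% lower). With library totals the split was 5 higher and 2 lower at day 8, where 5823 of 8707 genes were called. It was 4 higher and 1 lower at day 11, where 6338 of 8707 were called. imd kept its call under that scaling, at −1.25 at day 8 and −1.24 at day 11, and pirk kept it at day 8 (−1.89) but not at day 11 (−0.57, adjusted p = 0.209).

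**Figure D3:**
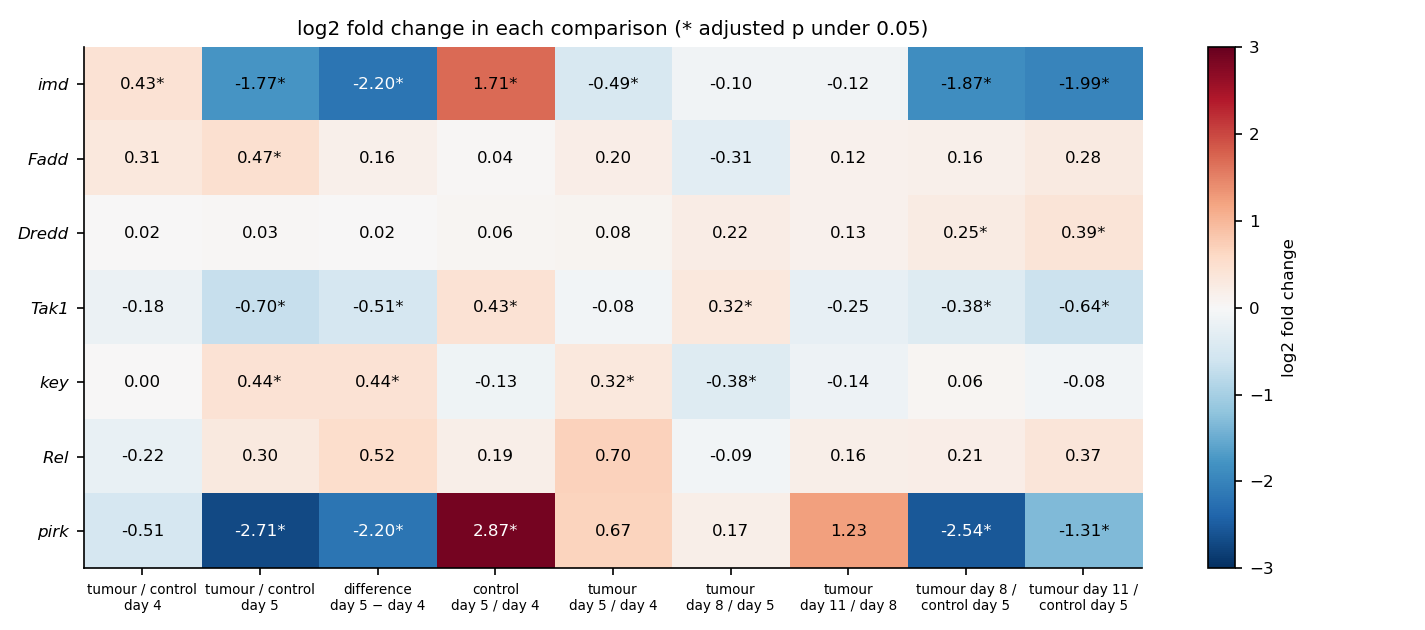
log2 fold change of the 7 components (rows) in the 9 comparisons (columns), on a colour scale of −3 to 3, with an asterisk where the edgeR adjusted p is under 0.05. imd, Tak1 and pirk are positive in control day 5 against day 4 (1.71, 0.43 and 2.87) and negative in the 3 contrasts of a tumour group with control day 5.

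The rest of the pathway was read from 6 lists of receptors, amidases, ubiquitin and kinase partners, other negative regulators, nuclear cofactors and the JNK branch, with 41 genes in all and 40 tested. In tumour against control at day 5, 4 of these were higher and 17 were lower, 52.5% called beside 54.9% of all genes. At day 4 there were 0 higher and 6 lower (15% beside 25.2%; DESeq2 called 0 higher and 7 lower). In controls at day 5 relative to day 4, 18 rose and 3 fell (52.5% beside 55%). Over both directions, the share called in these 3 comparisons was close to or below that of all genes. By direction, more list genes were lower than higher in both tumour against control contrasts, and more were higher in controls. The day 5 contrast and the control contrast share the control day 5 libraries, so these are not separate evidence. The lists were also chosen with earlier results of these data known, so the counts say little about the pathway as a whole. Of all genes, 26.7% were higher and 28.2% lower at day 5, and 14.6% higher and 10.5% lower at day 4. In controls 25.8% were higher and 29.2% lower. At tumour day 5 against day 4, the lists held 12 higher and 7 lower genes, where 19.6% of all genes were higher and 24.5% lower. Without the 4 libraries picked by markers, tumour against control gave 2 higher and 15 lower at day 5, and 1 higher and 9 lower at day 4.

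Among receptors and peptidoglycan-binding proteins at day 5, 1 of 5 was higher and 3 were lower in tumour fat bodies, with a list median of −0.44 against 0.03 over all genes (54.9% of all genes called, 26.7% higher and 28.2% lower). The signalling receptor gene PGRP-LC had 47.8 ± 5.41 CPM in tumour and 64.7 ± 15.0 CPM in control fat bodies (SD, n = 4 each; −0.44 ± 0.13, edgeR adjusted p = 0.00882). Its call ended without tumour day 5 replicate 3 (−0.37, adjusted p = 0.0551) and with library totals (−0.30, adjusted p = 0.0507). PGRP-LE, an intracellular receptor, was lower by 0.42 ± 0.09, and by 0.25 with an adjusted p of 0.0607 without the 4 libraries picked by markers. PGRP-SD, a secreted binding protein, was lower by 0.63 ± 0.16. PGRP-LF, a receptor-like inhibitor, was the 1 higher member at 1.66 ± 0.70 (adjusted p = 0.0494). It lost that call in 18 of the 24 fits that left out 1 library (1.11 to 1.66, adjusted p of 0.0522 to 0.218), the lowest value being without tumour day 5 replicate 1. The call also ended without the 4 libraries picked by markers (1.34, adjusted p = 0.0675) or with no low-count filter (1.63, adjusted p = 0.0761). In controls PGRP-LC rose at day 5 relative to day 4, by 1.52 ± 0.14, and 4 of the 5 genes rose and 1 fell, where 55% of all genes were called (25.8% higher).

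The amidases cut peptidoglycan and so damp the signal. PGRP-LB, one of them, was higher in tumour than in control fat bodies at day 5, with 21.0 ± 4.72 CPM in tumour and 9.08 ± 2.69 CPM in control fat bodies (1.21 ± 0.22, edgeR adjusted p = 7.18e-05). PGRP-SB1 was lower by 1.65 ± 0.65 (adjusted p = 0.0355), a call that ended without replicate 3 or 4 of tumour day 5 or replicate 2 or 3 of control day 5 (−1.60 to −1.31), and without the 4 libraries picked by markers (−1.46, adjusted p = 0.174). It ended too with no low-count filter (adjusted p = 0.0595) and with only the groups compared (adjusted p = 0.0861). At tumour day 11 against control day 5, 4 of the 5 amidase genes tested were higher and 0 lower, where 57.5% of all genes were called (27.4% higher). PGRP-SC2 had 58.3 ± 26.7 CPM in tumour day 11 and 2.22 ± 1.24 CPM in control day 5 fat bodies (4.72 ± 0.55), and PGRP-LB was higher by 1.40 ± 0.22. PGRP-SC1a and PGRP-SC1b, the others of the 4, were near the floor. PGRP-SC1a had 0.65 ± 0.36 CPM in tumour day 11 fat bodies and 0 counts in every control day 5 library, and is given no fold. PGRP-SC1b had 0.89 ± 0.11 CPM in tumour day 11 and 0.17 ± 0.20 CPM in control day 5 fat bodies. PGRP-SC1b lost its call without tumour day 11 replicate 2 or control day 5 replicate 1 or 3 (1.90 to 2.23), without the 4 libraries (1.92, adjusted p = 0.0699) and with no low-count filter (2.33, adjusted p = 0.118).

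Of the 6 ubiquitin and kinase partners, 1 was higher and 3 were lower in tumour fat bodies at day 5, beside 26.7% and 28.2% of all genes. The E2 enzyme genes eff, ben and Uev1A were lower by 1.01 ± 0.09, 0.57 ± 0.08 and 0.45 ± 0.07, and the E3 ligase gene Diap2 was higher by 0.56 ± 0.08. eff had 162 ± 4.70 CPM in tumour and 326 ± 30.3 CPM in control fat bodies (SD, n = 4 each; edgeR adjusted p = 2.51e-09). Tab2, the partner protein of Tak1, was higher by 0.70 ± 0.13 at tumour day 8 against day 5 and by 0.82 ± 0.13 at tumour day 11 against control day 5. Tak1 was lower at tumour day 11 against control day 5, except with library totals.

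The 8 negative regulators other than pirk were counted separately, and at day 5 there were 5 of them lower and 1 higher in tumour fat bodies, with a median of −0.52 against 0.03 over all genes (28.2% of all genes called lower and 26.7% higher). casp (Caspar), which holds back Relish cleavage, was lower by 0.77 ± 0.11 and the deubiquitinase genes trbd and scny by 0.68 ± 0.08 and 0.45 ± 0.09. sick, listed here although it is known as a gene needed for Relish activation in cultured fly cells, was lower by 1.14 ± 0.20, with 10.6 ± 2.78 CPM in tumour and 23.5 ± 1.47 CPM in control fat bodies (SD, n = 4 each; edgeR adjusted p = 5.29e-05). The 1 higher gene, named after its value was seen, was dnr1, an inhibitor of Dredd, with 67.1 ± 18.9 CPM in tumour and 29.1 ± 11.6 CPM in control fat bodies (1.21 ± 0.29, adjusted p = 0.00155). At day 4, trbd and scny were lower by 0.36 ± 0.08 and 0.40 ± 0.09. In controls at day 5 relative to day 4, 5 of the 8 rose and 0 fell, where 55% of all genes were called (25.8% higher), and among the 5 were CYLD (1.12 ± 0.18) and sick (1.90 ± 0.21).

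Among the 9 nuclear cofactors, 2 were lower and 0 higher in tumour fat bodies at day 5, where 28.2% of all genes were lower. akirin, which Relish needs for a subset of its targets, was lower by 0.96 ± 0.08 (edgeR adjusted p = 3.36e-09) and the repressor gene zfh1 by 1.95 ± 0.33. In controls both had risen at day 5, akirin by 0.49 ± 0.08 and zfh1 by 2.71 ± 0.34. Of the 7 JNK branch genes, 3 were lower and 0 higher at day 5: the kinase genes Mkk4 (−0.47 ± 0.07), hep (−0.61 ± 0.10) and slpr (−0.65 ± 0.12). kay, the Fos gene, was higher by 0.49 ± 0.11 at tumour day 11 against control day 5. In that comparison the 6 lists together held 9 higher and 15 lower genes of 40, where 57.5% of all genes were called (27.4% higher and 30.1% lower). With library totals they held 27 higher and 2 lower. Under that scaling 6338 of 8707 genes were called and the median of all genes moved by 0.74.

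**Figure D4:**
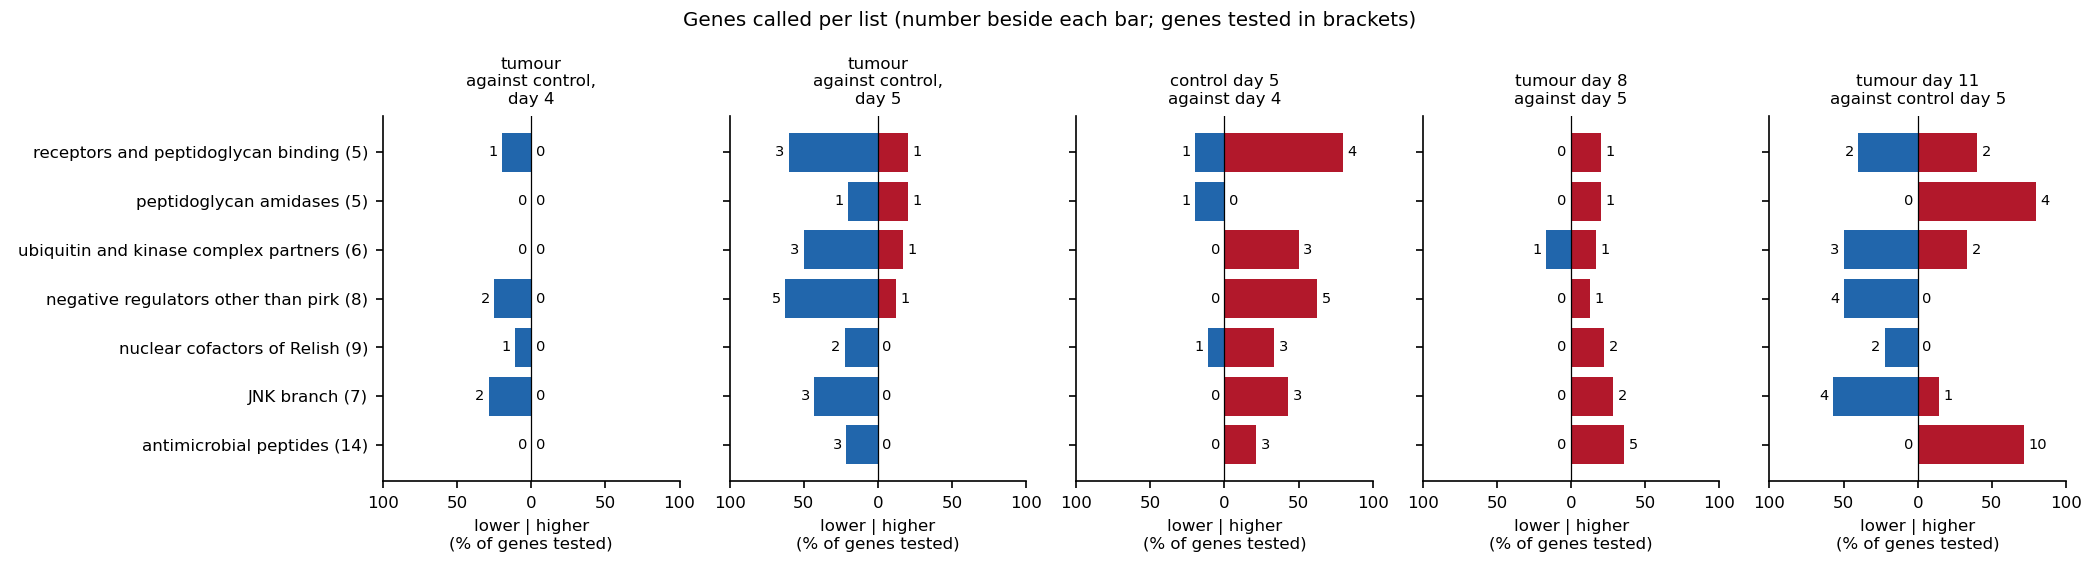
Genes called higher (right, red) and lower (left, blue) in each pathway list, as a percent of the genes tested, in 5 comparisons, with the number beside each bar. At day 5 most lists lean to the left for tumour against control, and at tumour day 11 against control day 5 the antimicrobial peptides stand at 10 of 14 higher.

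The 14 antimicrobial peptide genes are known targets of Relish in the fat body, and their level varied far more between libraries than that of Rel. Their summed level was 259, 194, 17.1 and 23.9 CPM in tumour day 5 libraries, against 74.9, 677, 208 and 88.6 CPM in control day 5 libraries. Replicates 1 and 2 of tumour day 5 were high and 3 and 4 low, while Rel was between 181 and 197 CPM in all 4. Gut markers, 11 genes, summed to 406, 293, 39.7 and 5.14 CPM in replicates 1 to 4 of tumour day 5. In those of control day 5 they summed to 291, 112, 26.7 and 212 CPM. The part of gut RNA in the peptide sums was not tested. At day 11 the sums were 2404, 3879, 1887 and 3811 CPM. At day 5, 3 of the 14 were lower in tumour fat bodies and 0 higher (54.9% of all genes called, 28.2% lower), among them DptA at −3.61 ± 0.97 and Dro at −2.75 ± 0.84 (edgeR adjusted p = 0.00367 and 0.00882). DptA had 8.60 ± 8.18 CPM in tumour and 105 ± 98.6 CPM in control fat bodies, and Dro 1.57 ± 0.96 and 10.4 ± 9.11 CPM (SD, n = 4 each). Without control day 5 replicate 2, DptA was at −2.79 (adjusted p = 0.017) and Dro at −2.13 (adjusted p = 0.0426). Mtk, the third, lost its call without replicate 3 or 4 of tumour day 5 or replicate 2 or 3 of control day 5 (−2.26 to −1.08). Without the 4 libraries picked by markers 1 of the 3 calls was left, and Dro was at −2.28 with an adjusted p of 0.159.

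At tumour day 8 relative to day 5, 5 of the 14 peptide genes rose and 0 fell, where 26.1% of all genes were called (12% higher). The count was 3 higher without the 4 libraries and 8 higher with library totals, where 4663 of 8707 genes were called. Dro had 58.1 ± 73.8 CPM at day 8 and 1.57 ± 0.96 CPM at day 5 (SD, n = 4 each; 5.23 ± 0.87, edgeR adjusted p = 0.000134). Replicate 2 of day 8 summed to 2063 CPM over the 14 genes, against 238 to 335 CPM in the other replicates, and without it Dro was at 3.78 and Def at 0.84 (adjusted p = 0.596). At tumour day 11 against control day 5, 10 of 14 were higher and 0 lower, where 57.5% of all genes were called (27.4% higher), with a median of 3.64 against 0.02 over all genes. AttA and AttB are near-identical copies, so their counts, both among the 10, are uncertain.

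**Figure D5:**
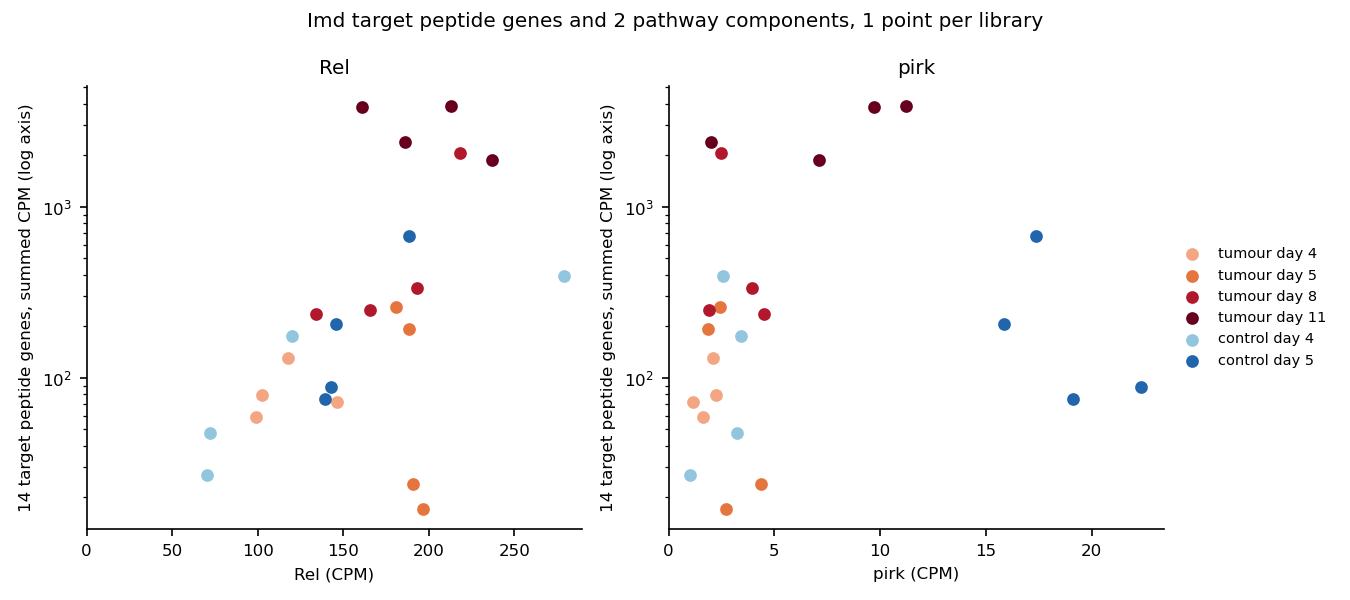
Summed CPM of the 14 peptide genes (vertical log axis) against Rel CPM (left) and pirk CPM (right), with 1 point per library coloured by group. Tumour day 11 libraries lie at 1887 to 3879 CPM with Rel at 161 to 237 CPM and pirk at 2.01 to 11.2 CPM, whereas control day 5 libraries hold more pirk (15.9 to 22.4 CPM) and sums of 74.9 to 677 CPM.

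For each component, the 3 genes with the most similar profile over the 24 libraries were found by Pearson's r of log2 CPM, which also reflects shared libraries and depth. For imd these were CG33099 (0.94), Gs1 (0.94), a glutamine synthetase, and CG9304 (0.94). For Tak1 they were CG8679 (0.93), Chpf (0.93) and hpo (0.93), the Hippo kinase gene. For pirk they were lncRNA:CR44748 (0.93), CG14439 (0.90) and mfrn (0.88), a mitochondrial iron carrier gene. Dredd was closest to CG30344 (0.88), NimC1 (0.87), a phagocytosis receptor gene of haemocytes, and promL (0.86). Rel was closest to Gadd45 (0.82), p53 (0.79) and D12 (0.78). key was closest to Drat (0.82), NitFhit (0.82) and CG7997 (0.81), and Fadd had the weakest matches in CG2765 (0.75), CG33120 (0.74) and CG42324 (0.74).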

How the data were processed

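Fat body RNA of 24 larval pools was read from both ends for 150 bp, as stated in the labels' protocols. The table deposited by the authors holds raw counts, whole numbers of reads for each gene in each library. STAR 2.5.4a and the build BDGP6 are named without a role, per the submitters' processing notes. How reads were counted, with which annotation release and with or without strand, is not given in the sources used here. No label names a batch. Total counts were 16074877 to 23352151 per library. In each of the 36 pairs of libraries within a group, counts differed beyond sampling noise (chi-square at least 8.94 per degree of freedom), so no library was treated as a copy.

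From the counts, genes were filtered with filterByExpr on the 6 groups (8707 of 17698 left), scaled by TMM and tested with edgeR 4.0.16 (quasi-likelihood, robust) in R 4.3.3, in 1 model with 6 group means and 9 contrasts, with Benjamini-Hochberg adjustment over all genes tested. Each SE was obtained as the absolute change over the square root of its F statistic, and CPM use the TMM factors. Symbols were matched for 17560 genes, all 55 entries of the pathway lists among them. Charon was taken as pickle through its RefSeq synonym. Coordinates and exon lengths were looked up by gene identifier in the BDGP6.54 annotation. The members and lists were chosen with earlier results of these data known. Named genes are the 7 components, the 3 genes most correlated with each, and up to 4 called members of each list by smallest adjusted p. The test was checked on simulated counts. Alternatives were RLE scaling, DESeq2 1.42.0, no filter, only the groups compared, a scaling that ignores the 20 most abundant genes, a replicate block, no robust option and each library left out. Library totals, and leaving out the 4 libraries picked by markers, were added after seeing the data.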

Additional observations from a re-analysis of the deposited data

Results flagged for a closer look

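Of the 42 sets of 4 libraries looked at, 7 components in 6 groups, 2 held a library far from the other 3, by the gap to its neighbour as a share of the whole range (above Dixon's 95% limit). Chance alone flags about 1 in 20 such sets. Fadd was at 5.44 CPM in tumour day 8 replicate 1 (gap share 0.902), above its other 3 libraries of 4.38 to 4.48 CPM. Rel was at 188 CPM in control day 5 replicate 2 (gap share 0.864), above its other 3 libraries of 139 to 146 CPM, and the antimicrobial peptide genes summed to 677 CPM in that library, against 74.9 to 208 CPM in the others.

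The tumour effect differed between day 5 and day 4, by the tested difference itself, for 4 components. Day 5 minus day 4, the difference was −2.20 for imd, −2.20 for pirk, −0.51 for Tak1 and 0.44 for key on the log2 scale.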

How the results depend on the processing

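Of 63 component results 25 were called. Over 33 alternatives these gave 825 values, of which 780 kept direction and call, 42 lost the call and 3 reversed. The causes were not tested, except that library totals move the median of all genes as given above.

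The number of components called moved past 1.5 times in these cases. At day 4 it was 0 with only the groups compared and 0 to 1 with 1 library left out. For tumour day 5 against day 4 it was 1 with no filter, 6 with library totals (4677 of 8707 genes called) and 1 to 3 with 1 library left out. For tumour day 8 against day 5 it was 1 without the 4 libraries picked by markers and 1 to 2 with 1 library left out. For tumour day 11 against day 8 it was 2 with DESeq2, 1 with only the groups compared and 0 to 1 with 1 library left out. For tumour day 8 against control day 5 it was 7 with library totals (5823 of 8707 genes called).

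Directions turned as follows, on the log2 scale. For tumour against control at day 4, key was −0.012 with RLE scaling, −0.015 with DESeq2, −0.039 with only the groups compared, −0.032 without the 20 most abundant genes in the scaling, −0.16 with library totals and −0.071 without the 4 libraries. Dredd was −0.021, −0.014 and −0.14 with only the groups compared, without the 20 genes and with library totals, and its difference between the days was −0.020 with no filter. Without the 4 libraries, Rel was 0.39 at day 4 and −0.067 for the difference, pirk was −0.0014 at tumour day 8 against day 5, and Tak1 was 0.050 at tumour day 5 against day 4. Tak1 was 0.0016 there with DESeq2 and 0.35 with library totals. key was 0.013 at tumour day 11 against control day 5 with only the groups compared.

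With library totals, key was 0.0054 in control day 5 against day 4. In tumour day 8 against day 5, imd was 0.38, Fadd 0.16, key 0.10, Rel 0.39 and Uev1A 0.25, and imd was 0.0044 at day 11 against day 8. Tak1 was 0.24 at tumour day 8 and 0.11 at tumour day 11 against control day 5. In tumour day 11 against control day 5, key was 0.66, PGRP-LE 0.11, PGRP-LC 0.41, trbd 0.18, scny 0.45, Bap60 0.44, Mkk4 0.31, slpr 0.27 and hep 0.39.

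With 1 library left out, the ranges that crossed 0 at day 4 were −0.018 to 0.092 for Dredd, −0.056 to 0.055 for key and −0.43 to 0.41 for Rel. Dredd ran −0.032 to 0.11 at day 5 and −0.062 to 0.092 for the difference, and Rel ran −0.12 to 0.73 for the difference. In control day 5 against day 4, Fadd ran −0.049 to 0.12 and Rel −0.028 to 0.82. In tumour day 8 against day 5, Rel ran −0.20 to 0.024 and pirk −0.040 to 0.45.

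Replicate numbers did not pair the libraries. Over 60 pairs of same-numbered libraries the correlation of deviations ran from −0.30 to 0.51 with 17 over 0.1, and 6 of 24 libraries correlated best with their own number. With the replicate block, 3 components were called for the difference between the days, where key had 0.44 with an adjusted p of 0.0618, and 3 for tumour day 5 against day 4, where Rel had 0.70 with an adjusted p of 0.0484. pirk, with as few as 15 counts in a library, is the component most limited by depth in the groups where it is low.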

Other observations

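Genes that overlap a component in the genome had the following values. Nmdmc, which encodes a folate enzyme and whose span holds Rel, had 9.11 ± 5.82 CPM in tumour and 160 ± 32.5 CPM in control fat bodies at day 5 (SD, n = 4 each; −4.13 ± 0.48, edgeR adjusted p = 2.72e-07), while Rel was at 0.30 ± 0.30. CG3589, which shares 29 exonic bases with key on the opposite strand, was lower by 0.58 ± 0.11 in tumour fat bodies at day 5, while key was higher. GstE9, a glutathione transferase gene that shares 40 exonic bases with imd on the opposite strand, was lower by 0.85 ± 0.25 in tumour fat bodies at day 5, as was imd. In controls at day 5 against day 4, GstE9 was lower, at −1.59, while imd was higher, at 1.71.

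Over the 24 libraries the log2 levels of imd and Tak1 had a Pearson's r of 0.72, those of imd and pirk 0.61 and those of Tak1 and pirk 0.58. These are descriptions across libraries of 6 groups, without a test. Rel had an r of 0.24 with pirk and −0.14 with imd.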
